A study of Mus musculus with 8 samples.

Results

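The liver of mice lacking fibromodulin was described from its own signal, by which genes were brightest and by which genes moved together between animals. The liver samples, chosen by their tissue label, were 4 of the 8 samples of the series, and the other 4 were hypothalamus. All were total RNA of male Fmod knockout mice on a C57BL/6 strain background at 13 weeks of age, kept under a light and dark cycle and fed a rodent diet, and the dissected organs were flash frozen. Both tissues carried the knockout, no treatment is named, and wild-type mice were not analysed here. The series text counts 4 mice and both organs, but no label ties equal replicate numbers to 1 mouse. The p-values below therefore measure the spread between arrays. How the Fmod allele was made is not stated there.

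The liver is made up mostly of hepatocytes, which secrete most plasma proteins, store and release glucose, burn and build fatty acids, make bile acids and clear ammonia and drugs. Smaller populations share the tissue: Kupffer cells, which are resident macrophages, the endothelium of the sinusoids, stellate cells, which lay down matrix, and bile duct cells. Fibromodulin, of the small leucine-rich proteoglycans, attaches to collagen fibrils and is best known from tendon and other connective tissue. Interferon-gamma, which lymphocytes release, induces class II antigen presentation genes and guanylate-binding proteins, and the circadian clock and glucocorticoid hormone set many hepatocyte transcripts by the hour.

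Each sample was read on its own single-colour Illumina bead array of 25697 probes, short oligonucleotides that each capture 1 transcript. A probe was taken as detected where its deposited detection p was under 0.05. The 4 liver arrays detected 10734, 10307, 10828 and 10479 probes, and 9055 probes (35.2%) were detected on all 4. Of 16593 genes with a probe, 6520 (39.3%) were detected on all 4 when each gene was read by its brightest probe, and these genes are described below. Median signals were 138.2, 150.3, 156.8 and 156.3, lowest on replicate 1, and the arrays correlated at 0.975 to 0.989 over detected probes. Signal depends on the probe as well as on the transcript. Alb, which encodes albumin, ranked 3708th, with normalized log2 signals of 7.56, 7.77, 8.02 and 7.74 on replicates 1 to 4 (the order of all such values below), and the fatty acid binding protein gene Fabp1 was detected on 0 arrays. A rank therefore orders probe signals and not numbers of transcripts.

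Both Fmod probes were undetected on all 4 liver arrays. Probe ILMN_2999762 gave signals of 134, 139, 159 and 152, and ILMN_1230020 gave 127, 128, 156 and 143, all below the array medians or close to them. The sources used here do not place these probes relative to the altered part of the gene, so they do not check the genotype. The labelled sex was checked with Eif2s3y, a Y-linked translation factor gene, which was detected on all 4 arrays (log2 8.62, 8.74, 8.21 and 8.70). The Y-linked genes Uty and Kdm5d were detected on 2 and 1 of the 4 arrays. One Xist probe was detected on 0 arrays and the other on 1. The hepatocyte markers Ttr (rank 38), Apoa1 (rank 15), Cps1 (rank 125) and Hnf4a (rank 652) were detected on all 4 arrays. Of 10 neuron genes, only Map2 was detected on all 4 arrays (rank 6258), and Snap25 and Stmn2 were detected on 0. Of 8 skeletal muscle genes none was detected on all 4, and Acta1, Myh4 and Ckm were detected on 0.

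Secreted proteins led the liver signal. The brightest gene was Serpina1b, an alpha-1-antitrypsin gene that encodes a protease inhibitor of plasma, with signals of 36090, 41858, 42026 and 41678. It held 0.442% ± 0.017 (SD, n = 4) of the background-corrected signal of detected genes and ranked first on every liver array. Next came Dbi, the acyl-CoA binding protein (signals of 31549, 36244, 40375 and 39164, 0.401% ± 0.008), and Hpx, the heme carrier hemopexin (34378, 36868, 38416 and 34965, 0.396% ± 0.032). The lowest signal on replicate 1 for all 3 genes goes with the lower scale of that array. The apolipoprotein of triglyceride-rich particles Apoc3 (0.391% ± 0.018), the antioxidant enzyme Gpx1 (0.391% ± 0.040) and haptoglobin, Hp (0.37% ± 0.024), followed. Then came Apoa2 (0.364% ± 0.020), fetuin-A, Ahsg (0.363% ± 0.024), kininogen, Kng1 (0.362% ± 0.012), and transferrin, Trf (0.358% ± 0.033). These neighbours in the order did not differ beyond their spread: on single arrays Gpx1 ranked between 2nd and 7th, Ahsg between 4th and 11th, and Serpina1e between 4th and 21st. Serpina1b, Serpina1e, Serpina1d and Serpina1c belong to a family of near-identical genes whose probes may share transcripts, and the same holds for the major urinary protein and cytochrome P450 genes, so their separate values are uncertain.

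Among the 30 brightest genes, 17 were in the lists of secreted proteins, 8 in metabolic lists and 3 in lists of housekeeping machinery, and 3 were in no list. They included Gnmt, a glycine methyltransferase (rank 13), the detoxifying enzyme Gstp1 (rank 14), the peroxisomal thiolase Acaa1b (rank 17), the retinol saturase Retsat (rank 18), ferritin heavy chain, Fth1 (rank 20), and Mat1a, which makes S-adenosylmethionine in hepatocytes (rank 27). None of the 30 came from a list of another cell type, of matrix or of regulators. Among the 100 brightest genes 27 were secreted, 27 metabolic and 16 housekeeping, and 28 were in no list. A gene can be in more than 1 list. Another 540 detected probes have no gene name here, which held 6.49% of the signal of detected probes, with 2 of them among the 30 brightest probes.

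The signal of liver was concentrated in fewer probes than that of hypothalamus. The 10 brightest liver probes held 3.30%, 3.09%, 3.12% and 2.98% of the signal on the 4 arrays, a mean of 3.12% ± 0.134 (SD, n = 4), against 2.32% ± 0.102 (SD, n = 4) in hypothalamus. The 100 brightest held 22.7%, 21.7%, 22.1% and 21.3% in liver, a mean of 21.96% ± 0.596, against 15.1% ± 0.481. In liver 398, 413, 416 and 416 probes were enough to hold 50% of the signal, a mean of 411 ± 8.62, against 748 ± 26.8 in hypothalamus. The 2 tissues did not overlap in any of these 3 measures. For each the exact permutation test over the 70 splits of 8 arrays gave a two-sided p = 0.0286, the smallest that test allows, and 0.0286 after Benjamini-Hochberg adjustment over the 3 measures. The differences were 0.80 and 6.82 percentage points and −337.5 probes. In the values normalized by the authors the first of them was 0.437, with the same p. The p of 0.0286 takes the 8 arrays as independent, although the series text counts 4 mice. With equal replicate numbers taken as pairs, an exact sign-flip permutation test gave p = 0.125 for each measure, the smallest that 4 pairs allow.

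**Figure D1:**
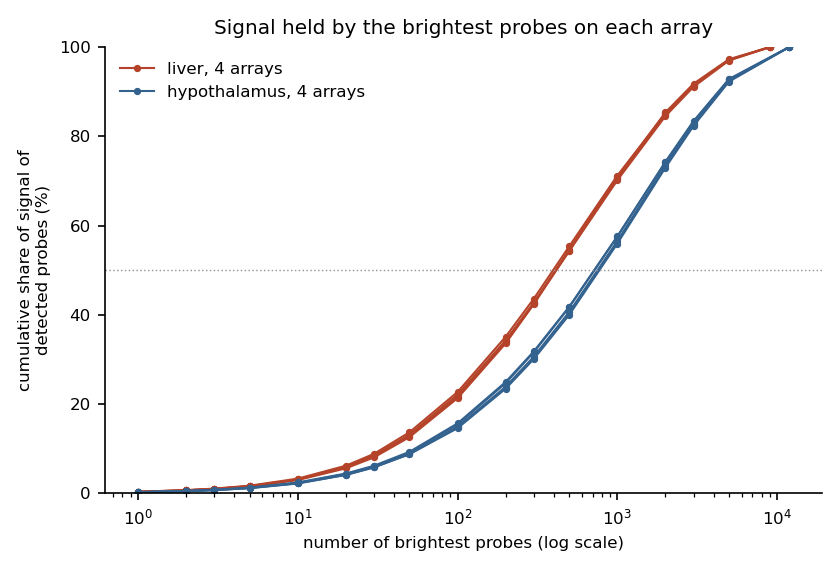
Cumulative share of the background-corrected signal (percent of the signal of probes detected on all 4 arrays of a tissue, vertical axis) against the number of brightest probes (log scale, horizontal axis), 1 line per array. The 4 liver lines lie above the 4 hypothalamus lines, and they reach 50% at 398 to 416 probes against 725 to 780.

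Within liver the decline from the top was gradual. The brightest gene was 1.49 times as bright as the 30th and 2.58 times as bright as the 100th. By gene, 328 of 6520 held 50% of the signal, the brightest 10% held 66.3% and the dimmer 50% held 3.97%.

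Plasma protein genes had the brightest median rank of the 56 lists. Of 24 with a probe, 21 were detected on all 4 arrays, with a median rank of 58 of 6520, 11 among the 100 brightest, and together 3.91% ± 0.0943 (SD, n = 4) of the signal. After Hpx, Ahsg, Kng1 and Trf came the fibrinogen chain Fga (rank 22), Ambp (rank 24), vitronectin, Vtn (rank 35), and zinc-alpha-2-glycoprotein, Azgp1 (rank 37). Serpin genes held 2.40% ± 0.0721 (13 of 14 detected, median rank 136), with antithrombin, Serpinc1 (rank 2187), and thyroxine-binding globulin, Serpina7 (rank 3971), far below the alpha-1-antitrypsin genes. Apolipoprotein genes held 2.35% ± 0.0552 and all 13 were detected (median rank 162). Apoc3, Apoa2, Apoa1, Apoe, Apoc1 and Apoc4 lay at ranks 4 to 33, and Apoc2, the lipase cofactor, came last at 1446. Major urinary protein genes, whose products are excreted as pheromone carriers, held 0.836% ± 0.00662 with Mup21 at rank 29 and Mup2 at rank 36.

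Defence and clotting factors ranked lower than the carriers. Complement genes held 0.893% ± 0.0399 (19 of 20 detected, median rank 699), led by C8g (rank 74), the inhibitor Cfi (rank 192) and C4b (rank 199). Coagulation genes held 0.891% ± 0.0413 (15 of 15 detected, median rank 599), led by plasminogen, Plg (rank 112), F9 (rank 195) and F10 (rank 202). Acute phase genes held 0.733% ± 0.0376, with Hp first, Orm1 at rank 117 and C-reactive protein, Crp, at rank 217. The serum amyloid genes Saa1 and Saa2 were detected on 3 and 1 of the 4 arrays. Hepcidin, the hormone that limits iron uptake, was bright (Hamp, rank 106, 0.165%).

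Of the metabolic lists, phase II conjugation held the most signal, 2.53% ± 0.117 (34 of 41 detected). Its lead over the next list was smaller than the share of its brightest member, the glycine methyltransferase Gnmt. The order of these 2 lists thus depends on where Gnmt is placed. The urea cycle and amino acid list held 2.39% ± 0.0614 (31 of 34 detected, median rank 431). Its brightest members after Mat1a were the transaminase Got2 (rank 60), ornithine aminotransferase, Oat (rank 62), and argininosuccinate synthase, Ass1 (rank 63), while the ornithine transcarbamylase Otc lay at rank 4710. Cytochrome P450 families 1 to 3 held 2.12% ± 0.103 from 23 of 40 genes (median rank 313), led by Cyp2e1, which oxidizes ethanol (rank 25), Cyp3a11 (rank 40) and Cyp2d9 (rank 65). Cyp1a1 and Cyp1b1, which are induced by aromatic pollutants, were detected on 0 arrays. Fatty acid oxidation and ketone making held 2.06% ± 0.159 (28 of 31 detected), with Acaa1b, the acyl-CoA dehydrogenase Acadm (rank 64) and the electron carrier subunit Etfb (rank 77) first and the carnitine transferase Cpt1a detected on 0 arrays.

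Bile acid genes held 1.25% ± 0.0489, with Cyp8b1, which makes cholic acid precursors, at rank 34 and Cyp7a1, whose product takes the limiting first step from cholesterol to bile acids, at rank 300. Fatty acid synthesis genes held 0.846% ± 0.0607, with the elongase Elovl5 (rank 95) and the desaturases Fads1 (rank 120) and Scd1 (rank 123) first. Cholesterol synthesis genes were dim by comparison: 0.241% ± 0.0539 and a median rank of 3287, although Hmgcs1, which makes the precursor HMG-CoA, lay at rank 244. Gluconeogenesis and glycogen genes held 0.401% ± 0.0335, with Fbp1 at rank 216, G6pc at rank 464 and Pck1 at rank 3940.

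Energy and protein-making machinery held more signal than any other of the 56 lists. Oxidative phosphorylation genes held 4.91% ± 0.132 (65 of 69 detected, median rank 425) and cytosolic ribosomal protein genes 4.65% ± 0.294 (52 of 59 detected, median rank 346.5). Atp5b, a subunit of ATP synthase (rank 26), and Rpl41 (rank 23) were their brightest members. Transcription factors of hepatocytes held 0.508% ± 0.0524 from 33 detected genes, with a median rank of 2455. Foxa3 (rank 245), Cebpb (rank 378), the bile acid receptor Nr1h4 (rank 401) and Hnf4a (rank 652) led them.

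Detected genes known to be higher in male than in female mouse liver ranked above detected genes known for the reverse. This is a description of ranks with no female mice on the arrays. Of 18 male-biased genes 14 were detected (median rank 596.5, 1.05% ± 0.0221 of the signal), with Gstp1, Cyp2d9, Cyp4a12a (rank 104), Cyp7b1 (rank 301) and Mup20 (rank 328) among the brightest. Of 16 female-biased genes 7 were detected (median rank 4051, 0.0558% ± 0.0128), and Acot3, a peroxisomal thioesterase, was the brightest (rank 587). Of all genes with a probe 39.3% were detected, and the detected part of the female-biased genes was near that share. Genes of both zones of the liver lobule were present. Pericentral genes held 1.15% ± 0.0787 (13 of 19 detected) and periportal genes 0.98% ± 0.0427 (17 of 17 detected), but the pericentral glutamine synthetase Glul was detected on 1 array.

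Markers of the other liver cells lay in the dim range. Kupffer cell and macrophage genes held 0.118% ± 0.0208 of the signal (14 of 18 detected), between 0.0887% and 0.133% on single arrays. The lectin Clec4f and the complement receptor Vsig4 ranked 2566th and 2395th, and the scavenger protein gene Cd5l was detected on 0 arrays. Sinusoidal endothelium genes held 0.0956% ± 0.0204 (14 of 19 detected, range 0.0708% to 0.121%), led by the lectin Clec4g (rank 669) with Kdr detected on 0 arrays. Stellate cell and fibroblast genes held 0.114% ± 0.0169 (7 of 17 detected), led by decorin, Dcn (rank 522), Ecm1 (rank 629) and reelin, Reln (rank 882). The retinol esterase Lrat, a defining marker, was detected on 3 arrays and Col1a1 and Col3a1 on 0. Bile duct genes were nearly absent: 1 of 7 was detected on all 4 arrays, the keratin Krt23 (rank 3765), and Krt19 and Sox9 were detected on 0. Of 13 T and NK cell genes only Cd3e was detected on all 4 (rank 5696), and of 7 B and plasma cell genes none was. In whole tissue, fewer cells of a type and less RNA per cell cannot be told apart.

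**Figure D2:**
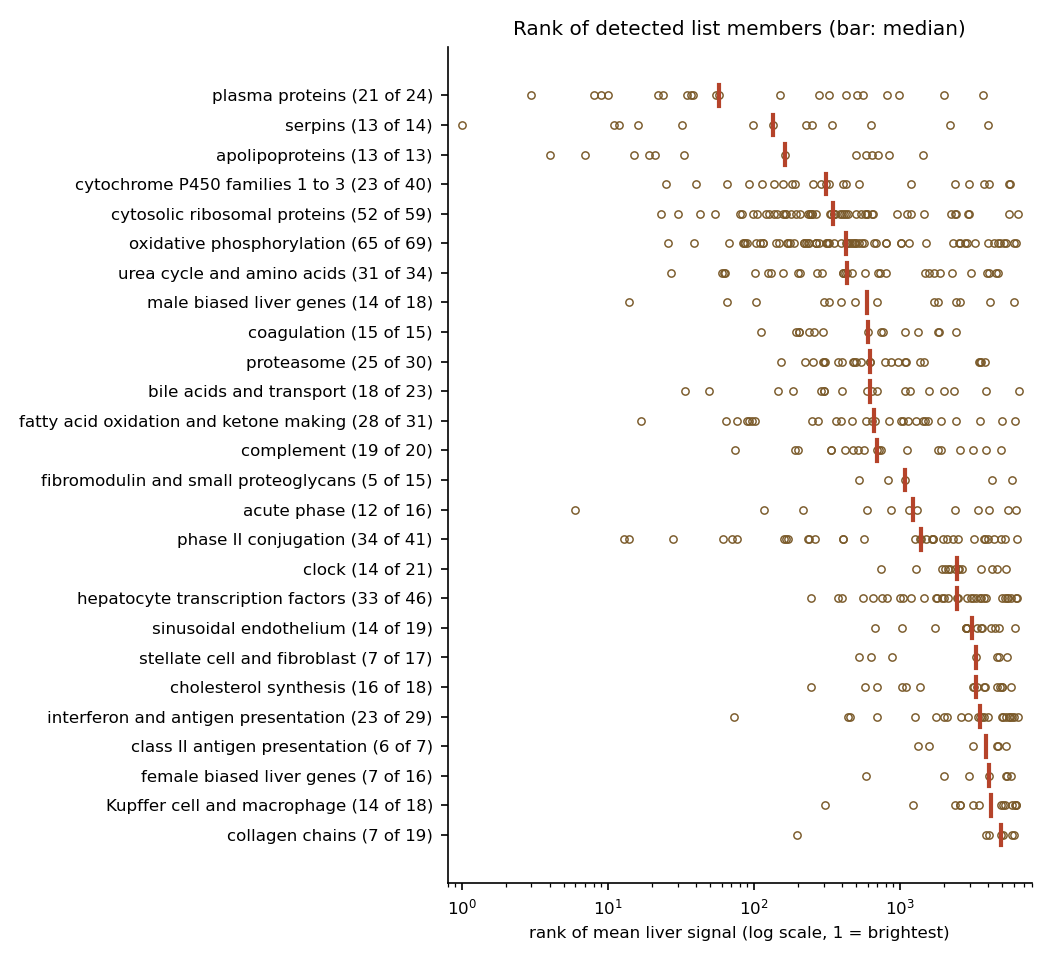
Rank of mean liver signal (log scale, 1 is the brightest of 6520 detected genes, horizontal axis) for each detected member of 26 gene lists, 1 circle per gene, with a bar at the median, and in brackets the genes detected on all 4 arrays of those with a probe. Plasma protein genes have their median at rank 58, and Kupffer cell genes and collagen chains have theirs at 4178 and 4884.

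The relatives of fibromodulin ranged from bright to undetected. Of 15 small leucine-rich proteoglycan genes with a probe, 5 were detected on all 4 arrays and 10 on 0, among them Fmod, asporin (Aspn), keratocan (Kera) and osteomodulin (Omd). Decorin, a collagen-binding relative, was the brightest (log2 12.51, 11.87, 11.97 and 11.55). Biglycan, Bgn, came next (rank 821, log2 11.71, 11.45, 11.13 and 10.92), and then Prelp (rank 1085, log2 10.99, 10.88, 10.94 and 10.57). Lumican, Lum, which competes with fibromodulin for a collagen site, was dim (rank 4256, log2 7.81, 7.26, 7.28 and 6.54), and osteoglycin, Ogn, dimmer still (rank 5816, log2 6.52, 6.20, 5.33 and 5.61). All 5 were highest on replicate 1 and 4 of them were lowest on replicate 4, where the median deviation from the own mean was −0.39 against 0.53 on replicate 1. Among all genes 26.5% were highest on replicate 1 and 26.2% lowest on replicate 4. Stellate cell and fibroblast genes, which share Dcn, moved the same way (0.24 on replicate 1 and −0.31 on replicate 4), and both directions held under 5 other scalings. Of 19 collagen chain genes 7 were detected, and Col18a1, whose product hepatocytes release in part as endostatin, stood far above the rest (rank 198 against 3893 for Col6a1, the next).

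Most genes differed little between the 4 livers. For each gene the deviation between arrays was taken on the log2 scale after normalization of the 4 arrays to 1 distribution, and the median SD was 0.20. Of 6520 genes, 944 had an SD under 0.1. After this normalization bright genes were the steadiest. The translation factor Eif5 (rank 281, SD 0.0093), Apoa2 (SD 0.015) and the respiratory chain subunit Cox5b (rank 103, SD 0.019) were among the 10 steadiest of the 500 brightest. The SD of 0 of Serpina1b follows from the normalization, which gives the top probe of every array 1 value. The same step holds other genes near the top close together, and the share of Apoa2, taken before it, varied more. Its part in the steadiness of bright genes was not tested. In 275 genes (4.22%) the SD was at least 0.5, and in 25 it was at least 1. Without background correction 66 genes reached 0.5, all of them among the 275, and 69 did in the authors' normalized values. The share of genes at 0.5 or more was 1.23% in the brightest of 10 equal classes of signal and 8.90% in the 8th, so that the 275 were mostly dim genes.

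Where a gene had a further detected probe, that probe gave a check within the same RNA. Of 59 further probes of the variable genes, 26 (44.1%) divided the 4 arrays in the same way at their largest gap, against 411 of 1987 (20.7%) over all genes, and 24 (40.7%) also had an SD of at least 0.5, against 5.44%. In 207 of the 275 genes the largest gap set a single array apart, and in 68 it set a pair against a pair. Replicate 1 was the single array in 82 genes, replicate 4 in 60, replicate 2 in 35 and replicate 3 in 30. With 4 animals and no second group, the following genes are described without a test, and groups of genes are to be read against all 6520. Of these 26.5%, 19.4%, 21.2% and 32.9% were highest on replicates 1 to 4, and 33.0%, 18.1%, 22.7% and 26.2% were lowest there.

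Liver replicate 2 had the highest signals for interferon-gamma targets and class II antigen presentation. Cxcl9, a chemokine that draws T cells and is induced by interferon-gamma, read 6.55, 9.66, 6.35 and 6.56 on the log2 scale, a 9.91-fold span. The guanylate-binding protein genes Gbp2 (7.12, 8.59, 7.03 and 6.36) and Gbp2b (5.76, 7.64, 5.87 and 5.66) and the large GTPase gene Gvin1 (5.74, 7.80, 6.22 and 5.27) had the same peak. Replicate 2 lay more than 1 unit above the other 3 arrays in each, and Gbp2, Gbp2b and Gvin1 were lowest on replicate 4. The class II chaperone Cd74, the invariant chain, read 10.47, 11.15, 10.17 and 9.50. The class II chains H2-Ab1 (9.87, 10.99, 9.83 and 9.0) and H2-Eb1 (7.89, 9.09, 8.29 and 7.35) followed it. All 6 detected class II genes had an SD of at least 0.5, were highest on replicate 2 and lowest on replicate 4, with median deviations of −0.06, 0.82, −0.17 and −0.65. Among all genes 19.4% were highest on replicate 2 and 26.2% lowest on replicate 4. All 3 further probes of H2-Ab1 were also highest on replicate 2 and lowest on replicate 4, as was the further probe of Cd74, although in 3 of these 4 the largest gap lies between replicate 4 and the rest.

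Of 23 detected genes of interferon response and antigen presentation, 14 were highest on replicate 2 and 17 lowest on replicate 4, against 19.4% and 26.2% of all genes. In 8 of them the SD was at least 0.5, against 4.22% of all genes. Psmb9, an immunoproteasome subunit, read 7.55, 8.60, 7.64 and 7.30. Igtp, an interferon-gamma induced GTPase that acts on vacuoles of pathogens, was high on replicates 2 and 3 (9.94, 11.30, 10.73 and 9.61), and its relative Irgm2 was lowest on replicate 4 (10.53, 11.50, 10.87 and 9.51). Isg15, the ubiquitin-like interferon target, stood apart only by a low value on replicate 4 (8.13, 8.01, 8.35 and 7.08). The bright B2m (rank 73), the light chain of class I molecules, led the list. The medians of the interferon list, −0.16, 0.35, 0.05 and −0.41, kept their sign on replicates 1, 2 and 4 under 5 other scalings, and those of the class II list on replicates 2 and 4 did too.

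The promoters of 4 of these GTPase genes are shown because they carry the interferon-stimulated response element, to which interferon regulatory and STAT factors bind. They are RefSeq windows of GRCm38.p6 from 250 bases before to 50 after the transcription start, read in the direction of the gene, with the element (TTTC, any 2 bases, TTTC) on either strand in capitals. Gbp2 lies at chr3:142620413-142620712, plus strand, Gbp2b at chr3:142594597-142594896, plus strand, Igtp at chr11:58199306-58199605, plus strand, and Irgm2 at chr11:58214727-58215026, plus strand.
Gbp2: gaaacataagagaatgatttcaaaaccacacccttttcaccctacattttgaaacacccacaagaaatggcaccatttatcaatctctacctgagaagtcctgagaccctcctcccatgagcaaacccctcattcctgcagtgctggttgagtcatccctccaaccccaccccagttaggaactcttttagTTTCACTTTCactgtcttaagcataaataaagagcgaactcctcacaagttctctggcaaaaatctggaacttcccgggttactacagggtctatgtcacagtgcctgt
Gbp2b: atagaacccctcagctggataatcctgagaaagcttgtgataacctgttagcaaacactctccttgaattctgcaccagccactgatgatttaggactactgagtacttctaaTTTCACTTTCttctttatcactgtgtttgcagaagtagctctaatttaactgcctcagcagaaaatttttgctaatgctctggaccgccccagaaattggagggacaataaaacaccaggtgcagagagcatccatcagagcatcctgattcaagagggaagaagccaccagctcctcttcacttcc
Igtp: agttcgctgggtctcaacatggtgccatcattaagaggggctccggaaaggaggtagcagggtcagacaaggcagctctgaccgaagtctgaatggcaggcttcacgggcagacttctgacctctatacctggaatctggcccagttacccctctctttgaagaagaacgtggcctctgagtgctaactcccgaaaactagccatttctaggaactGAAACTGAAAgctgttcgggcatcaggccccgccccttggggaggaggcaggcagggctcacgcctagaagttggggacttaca
Irgm2: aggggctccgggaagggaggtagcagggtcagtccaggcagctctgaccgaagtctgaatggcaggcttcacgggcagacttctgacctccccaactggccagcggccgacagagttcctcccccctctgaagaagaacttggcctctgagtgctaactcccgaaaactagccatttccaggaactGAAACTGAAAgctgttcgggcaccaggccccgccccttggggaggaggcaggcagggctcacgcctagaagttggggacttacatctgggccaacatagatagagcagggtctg
Counted from the start, the capitals begin at −59 in Gbp2, −137 in Gbp2b, −34 in Igtp and −64 in Irgm2. It was present in the windows of 9 of 20 detected interferon list genes with a window (45%), against 3.99% of all 27025 genes in the table. Among variable genes that were high on replicate 2 alone, 4 of 18 windows held it (22.2%): those of Gbp2, Gbp2b, the Fc receptor Fcgr4 and Saa3. Of 4 class II genes with a window 0 held it.

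Macrophage genes moved partly with the interferon genes. The list's brightest member, the iron exporter Slc40a1 (rank 308), is made by hepatocytes too. Of 14 detected Kupffer cell and macrophage genes 8 were highest on replicate 2 and 5 had an SD of at least 0.5, against 19.4% and 4.22% of all genes. Their median deviations were 0.13, 0.50, −0.30 and −0.33, with the same signs under 5 other scalings. The complement subunit C1qb read 9.20, 9.42, 8.24 and 8.25 and Vsig4 9.48, 9.52, 8.52 and 8.51, so that replicates 1 and 2 lay about 1 unit above 3 and 4. Clec4f, the marker most particular to Kupffer cells, read 8.92, 9.35, 8.54 and 8.63. Endothelial genes did not move with them: 10 of 14 were lowest on replicate 2, against 18.1% of all genes, and 11 were highest on replicate 1, against 26.5%, the lectin Clec4g with 12.08, 10.89, 11.55 and 11.73 and Oit3 with 8.49, 7.13, 7.74 and 7.69. The endothelial medians, 0.24 on replicate 1 and −0.30 on replicate 2, kept their signs under 5 other scalings, under which 6 to 11 of the 14 were highest on replicate 1. Of the T and NK cell genes only Cd3e was detected on all 4 arrays, and Cd3d, Cd8a and Cd4 were detected on 0. The part of cell numbers in the interferon and class II values was not tested.

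Acute phase genes were also high on replicate 2, where 7 of 12 had their highest value (median deviation 0.21), against 19.4% of all genes. The fibrinogen-like hepatokine Fgl1 read 11.24, 12.50, 11.85 and 11.27, and Saa3, which macrophages make as well as hepatocytes, 7.35, 8.34, 6.79 and 6.77. The metal-binding metallothionein Mt2 read 6.27, 7.87, 7.02 and 6.97, and its bright relative Mt1 (rank 41) was likewise highest on replicate 2 and lowest on replicate 1, within a 1.43-fold span.

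**Figure D3:**
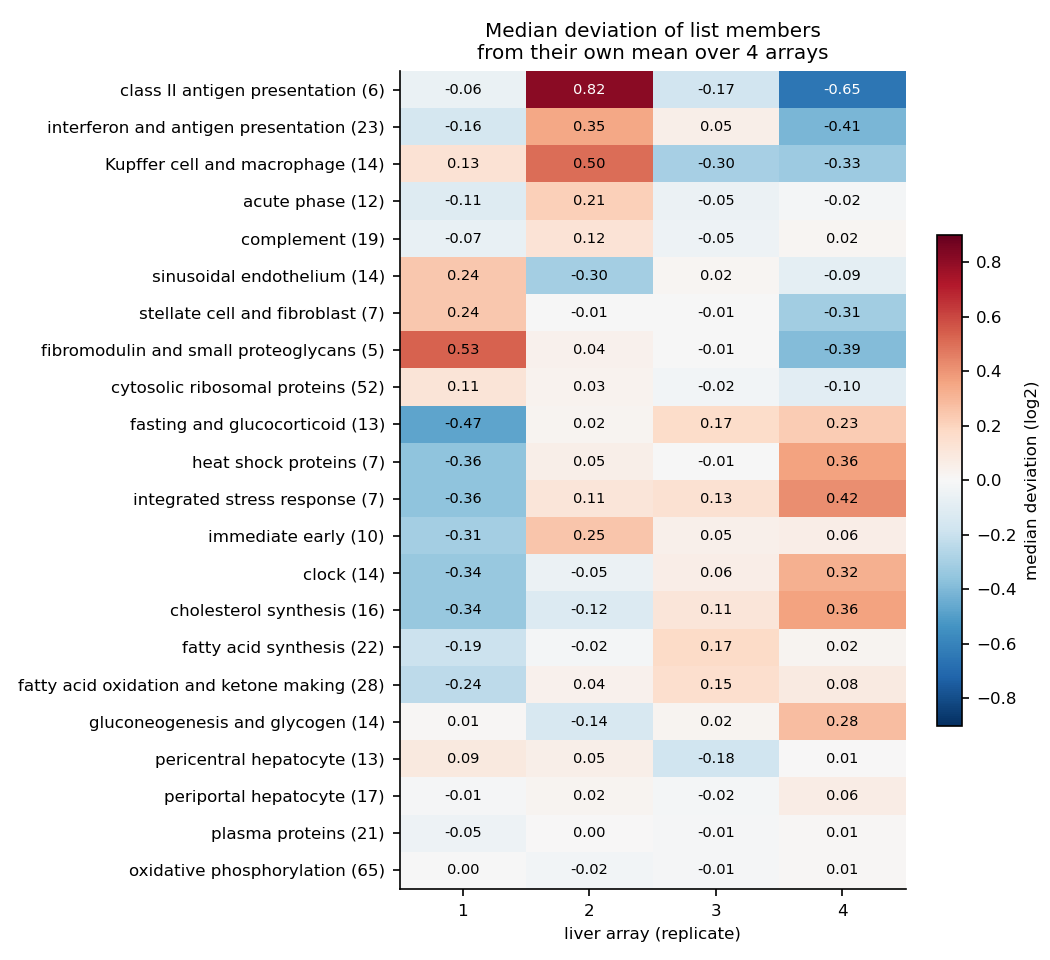
Median over the detected members of 22 gene lists of the deviation of each gene from its own mean over the 4 liver arrays (log2, colour and printed value), with arrays in columns and the number of detected members in brackets. Class II genes reach 0.82 on replicate 2 and −0.65 on replicate 4, and the fasting and glucocorticoid list lies at −0.47 on replicate 1.

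Liver replicate 1 had the lowest signals for stress, glucocorticoid and clock output genes. Cdkn1a, the cell cycle inhibitor p21, read 6.07, 9.19, 8.41 and 9.31, a 9.39-fold span, and its 2 further probes had the same low array (5.71, 7.47, 7.06 and 7.63 for one, 5.11, 6.43, 6.14 and 6.36 for the other). Gadd45g, a stress-induced growth arrest gene, read 9.32, 11.13, 10.92 and 11.74, and its further probe 6.09, 7.76, 7.80 and 8.32. Replicate 1 lay below the other 3 arrays for all 5 probes. The brightest Cdkn1a probe was lowest on replicate 1 in hypothalamus too (values below). Fkbp5, a glucocorticoid receptor chaperone and target, read 7.34, 8.49, 8.74 and 9.21. The phosphatidate phosphatase Lpin1, induced by fasting, read 7.31, 8.03, 8.59 and 9.25, and the chaperone Hsph1 8.72, 10.07, 9.57 and 10.58. These 3 genes were lowest on replicate 1 and highest on replicate 4.

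Lists of such genes moved the same way. They hold some of the genes just named, as the immediate early list holds Gadd45g. The counts are therefore not independent of those genes. Of 13 fasting and glucocorticoid genes 9 were lowest on replicate 1, of 7 heat shock genes all 7, of 10 immediate early genes 7, and of 14 clock genes 10, where 33.0% of all genes were lowest on replicate 1. The medians on replicate 1 were −0.47, −0.36, −0.31 and −0.34, and each stayed below 0 under 5 other scalings. Of 28 fatty acid oxidation and ketone genes 22 were lowest on replicate 1 (median −0.24) and 16 highest on replicate 3 (0.15), against 33.0% and 21.2% of all genes. Ehhadh, the bifunctional enzyme of peroxisomal oxidation, read 9.18, 10.81, 11.21 and 9.90. All of these lists share an array of lower median signal, whose part was not tested, and plasma protein genes had a median of −0.05 there, whose sign turned under 1 of 5 other scalings.

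Sterol synthesis genes were low on replicate 1 and high on replicate 4. Of 16 detected, 9 were lowest on replicate 1 and 11 highest on replicate 4, against 33.0% and 32.9% of all genes, with medians of −0.34, −0.12, 0.11 and 0.36. Squalene epoxidase, Sqle, read 6.57, 7.72, 8.74 and 8.46, the demethylase Cyp51 7.70, 7.88, 8.88 and 8.38, and the methyl oxidase Msmo1 9.71, 10.12, 10.49 and 10.92. The order of replicates 3 and 4 thus differed from gene to gene, while replicate 1 was lowest in all 3.

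Other genes were highest on replicate 1. S100a8, a calcium-binding protein of neutrophils, read 8.40, 5.59, 5.61 and 6.08, and Slpi, a protease inhibitor of neutrophils and epithelia, 9.53, 7.61, 7.16 and 5.98. Lysozyme, Lyz2, of macrophages and neutrophils, read 9.01, 7.83, 7.43 and 6.82. Of 11 neutrophil genes 2 were detected on all 4 arrays, S100a8 and Lcn2, and the defining markers Ngp, Camp, Mpo and Elane were detected on 0. The hemoglobin gene Hba-a1 (rank 107) read 14.54, 13.60, 13.46 and 13.50, so replicate 1 was about 1 unit above the rest. The 2 detected genes of the blood list were Hba-a1 and the heme enzyme gene Alas2. Together they held 0.284% of the signal of replicate 1 against 0.142% to 0.159% on the others. Alas2 itself was lowest on replicate 1 (10.43, 10.92, 10.79 and 11.05). The beta globin gene Hbb-b2 was detected on 0 arrays. Another beta globin gene, Hbb-bt, which is outside the list, was detected on all 4 (rank 4012). It read 8.05, 7.80, 6.55 and 7.28, highest on replicate 1 and lowest on replicate 3. Cytosolic ribosomal protein genes were shifted slightly in the same direction: 32 of 52 were highest on replicate 1 (median 0.11) and 26 lowest on replicate 4 (−0.10). Among all genes 26.5% and 26.2% were. The part of blood left in the organ in these values was not tested.

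Liver replicate 4 had the highest signals for clock output. Usp2, a deubiquitinase under clock control, read 8.41, 8.91, 9.03 and 10.15, and the repressor genes Ciart 6.58, 6.82, 6.63 and 7.79 and Per2 7.31, 7.58, 7.96 and 8.49. A further probe of Ciart read 5.85, 6.52, 6.45 and 7.72 and one of Per2 6.99, 7.39, 7.34 and 8.07, both highest on replicate 4. The bright clock output factor Dbp hardly differed (11.51, 11.40, 11.53 and 11.46). Of 14 clock genes 8 were highest on replicate 4 and 0 lowest there (median 0.32), against 32.9% and 26.2% of all genes. The sources used here do not give the hour at which each mouse was killed.

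The promoter of Ciart is shown because it carries the E-box CACGTG, the element of the CLOCK and BMAL1 factors, 3 times within the RefSeq window of GRCm38.p6 (chr3:95882179-95882478, minus strand), in capitals.
Ciart: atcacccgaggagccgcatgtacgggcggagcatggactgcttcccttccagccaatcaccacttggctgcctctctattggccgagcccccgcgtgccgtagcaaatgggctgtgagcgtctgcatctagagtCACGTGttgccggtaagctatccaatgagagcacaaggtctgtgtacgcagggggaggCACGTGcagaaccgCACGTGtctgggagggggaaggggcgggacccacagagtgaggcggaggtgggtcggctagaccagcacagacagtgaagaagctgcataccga
E-boxes were present in 3 of 12 detected clock genes with a window (25%), in 8.09% of all genes in the table, and in 12.7% of the detected genes beyond rank 500.

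Other single genes were high on replicate 4. Acta2, the smooth muscle actin of vessel walls and activated stellate cells, read 6.12, 7.41, 7.31 and 9.57, a 10.95-fold span, while Tagln, another smooth muscle gene, was detected on 0 arrays. The stellate cell list, which holds Acta2, had a median of −0.31 on replicate 4, and the sinusoidal endothelium list one of −0.09. Ccl21a, a chemokine of lymphatic vessels, read 5.24, 5.39, 6.47 and 8.08, and it has near-identical copies whose transcripts 1 probe may join. Bhmt, which remethylates homocysteine with betaine, read 8.35, 10.11, 9.32 and 11.37. The female-biased cytochrome Cyp2b9 read 6.88, 5.88, 6.72 and 8.80, and its relative Cyp2b10, a target of the receptor CAR, 8.58, 7.75, 8.34 and 9.05. Both were lowest on replicate 2. All 7 detected female-biased genes had an SD of at least 0.5, against 0 of 14 male-biased genes, 4.22% of all genes and 8.90% in the signal class with the most such genes. They had no shared pattern: Acot3 was low on replicate 1 (11.06, 11.94, 12.23 and 11.91), and Ntrk2 was high on replicates 2 and 4.

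A few genes were far lower on replicate 4 than on the other arrays, while their lists were not. Plasma protein genes had a median deviation of 0.01 there, with 8 of 21 highest and 2 lowest. Urea cycle and amino acid genes had one of 0.10, with 14 of 31 highest and 7 lowest. Genes of the growth hormone, IGF and insulin axis had one of −0.02, with 6 of 17 highest and 5 lowest. Among all genes 32.9% were highest and 26.2% lowest on replicate 4. Mug2, a murinoglobulin that traps proteases in plasma, read 12.59, 12.59, 13.17 and 8.95, an 18.7-fold span, and its further probe 10.70, 10.97, 11.61 and 6.93. A2ml1, of the same protein family, read 9.19, 9.11, 9.74 and 6.65, and its further probe 9.10, 9.11, 9.75 and 6.41. Mug1, the near relative of Mug2, did not share the drop (14.22, 14.44, 14.32 and 14.54). Histidase, Hal, which opens the breakdown of histidine, read 11.90, 12.07, 11.65 and 9.51, and Igfbp3, the main carrier of IGF1 in plasma, 7.49, 6.82, 7.04 and 5.56. In each of these 6 probes replicate 4 lay below the other 3 arrays.

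Liver replicate 3 was set apart by the inhibitors of differentiation, which are targets of BMP signalling. Id1 read 6.87, 7.04, 8.61 and 7.03, Id2 7.53, 7.59, 8.51 and 7.10, and Id3 6.76, 6.77, 7.80 and 5.80. Hes1, a repressor best known as a Notch target, read 6.26, 6.10, 7.40 and 6.27. All 4 were highest on replicate 3, and Id2 and Hes1 were singled out after their values were seen. Pericentral hepatocyte genes were lower there, with 9 of 13 at their lowest value against 22.7% of all genes (median −0.18, below 0 under 5 other scalings).

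**Figure D4:**
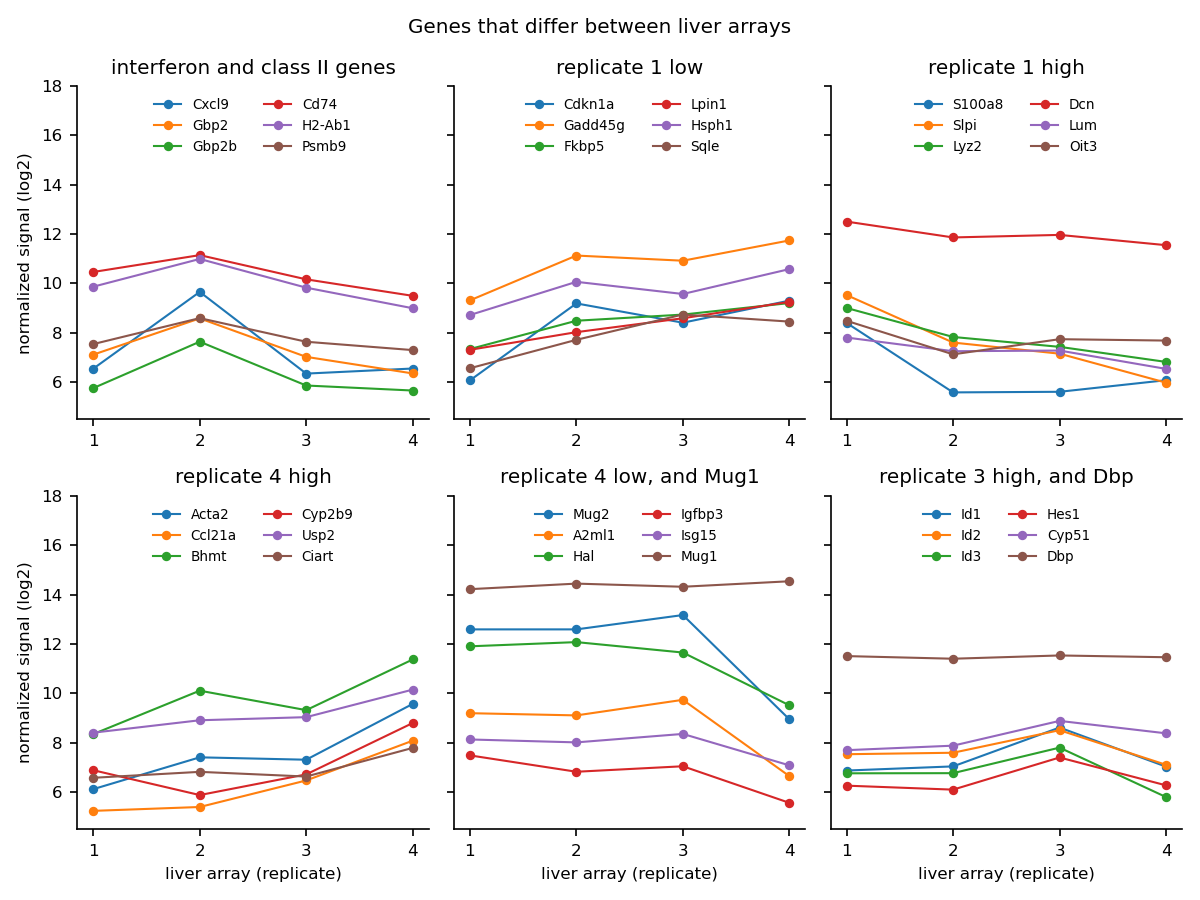
Normalized log2 signal (vertical axis) of 36 genes on liver replicates 1 to 4 (horizontal axis), in 6 panels named by the array that stands apart in most of their genes. A line joins the values of 1 gene, and replicates have no order. Cxcl9 reads 9.66 on replicate 2 and at most 6.56 elsewhere, and Mug2 reads 8.95 on replicate 4 and at least 12.59 elsewhere.

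Of 7 detected genes of the integrated stress response, 4 were lowest on replicate 1 (median −0.36) and 4 highest on replicate 4 (0.42). Among all genes 33.0% and 32.9% were, so these counts from 7 genes lie not far above those shares. Both medians kept their sign under 5 other scalings. In 4 of them the SD was at least 0.5, with different arrays apart. The transcription factor Atf4 was low on replicate 3 (8.25, 8.82, 5.19 and 7.98) and Ddit3 on replicate 1 (5.82, 6.54, 6.65 and 7.19). A further probe of Ddit3 did not share this and was lowest on replicate 3 (5.34, 6.24, 5.08 and 5.93). Asns, the asparagine synthetase that ATF4 induces, was high on replicates 2 and 4 (5.13, 6.79, 5.88 and 7.01). The Asns window of RefSeq GRCm38.p6 (chr6:7693160-7693459, minus strand) is shown because it carries the ATF4 element TGATGNAA, in capitals, beginning at −23 from the start.
Asns: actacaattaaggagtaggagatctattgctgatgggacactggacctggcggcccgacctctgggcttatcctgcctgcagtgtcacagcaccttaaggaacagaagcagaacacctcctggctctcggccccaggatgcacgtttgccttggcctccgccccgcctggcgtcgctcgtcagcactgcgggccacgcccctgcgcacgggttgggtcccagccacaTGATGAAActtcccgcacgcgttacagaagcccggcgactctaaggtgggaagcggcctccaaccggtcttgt
The element was present in 3 of 7 of these genes with a window and in 4.51% of all genes in the table. Asns was lowest on replicate 1 (5.13) and next lowest on replicate 3 (5.88), where Atf4 was lowest. A link between the 2 genes was not tested. The serpin gene Serpina11 was high on replicates 1 and 4 (10.60, 8.58, 8.38 and 10.63), and the glycogen-targeting subunit Ppp1r3b was low on replicate 2 (7.59, 6.07, 7.80 and 8.90).

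Some variable genes with 1 pattern neighbour each other on a chromosome. Tomm22, a receptor of protein import into mitochondria, read 9.27, 10.18, 5.47 and 10.30, a 28.5-fold span and the largest SD of any gene (2.27). It lies on chromosome 15 within 5 Mb of Atf4, of the cell death gene Bik (7.86, 8.37, 5.97 and 8.25) and of Cdc42ep1, all low on replicate 3. Other variable neighbours there did not share the pattern: Pla2g6 was high on replicate 3, and Lgals1 was high on replicates 2 and 4. On chromosome 14 the proteasome subunit Psmb5 (8.41, 5.45, 9.09 and 5.57) and the DNA repair enzyme Apex1 (8.31, 7.02, 9.37 and 7.25) were both high on replicates 1 and 3. A further probe of Apex1 did not share this (5.70, 5.57, 5.79 and 5.75). Mug2 and the cell death gene Bid, both low on replicate 4, are neighbours on chromosome 6, and Gbp2 and Gbp2b on chromosome 3. H2-Ab1 and H2-Eb1 lie on chromosome 17.

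Over all pairs of the variable genes, 58 of 236 pairs within 5 Mb shared their pattern over the arrays (24.6%), against 3245 of 35736 pairs on different chromosomes (9.08%). Neighbour relations were read from GRCm38.p6, and pairs that share a gene or a family are not independent of each other. Many of the 58 pairs join H2 genes and Psmb9 on chromosome 17, which were high on replicate 2. Abhd1 on chromosome 5 was low on replicate 3 by all 3 of its probes (8.84, 9.32, 6.03 and 9.21 for the brightest).

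Some of these genes repeated their pattern by replicate number in hypothalamus, read by the same probe after joint normalization of all 8 arrays. Tomm22 read 9.68, 10.48, 6.07 and 10.58 in liver and 9.28, 10.66, 5.43 and 10.48 in hypothalamus. Atf4 read 8.75, 9.27, 5.72 and 8.51 in liver and 7.37, 8.72, 5.0 and 8.61 in hypothalamus. Both tissues were thus lowest on replicate 3 by over 2 units. Psmb5 read 8.90, 6.05, 9.51 and 6.19 against 8.57, 7.11, 9.23 and 7.39, and Apex1 8.81, 7.61, 9.76 and 7.83 against 8.99, 7.75, 9.62 and 7.92. The signal recognition particle receptor Srpr was low on replicate 1 in both (7.69, 9.49, 9.18 and 9.55 against 5.49, 7.36, 7.20 and 7.58), and the sialic acid enzyme Cmas was high on replicates 2 and 3 in both (8.02, 9.60, 9.68 and 8.55 against 8.50, 10.09, 10.39 and 8.67). Csrnp1, a nuclear protein gene, was high on replicates 3 and 4 in both (5.67, 6.25, 7.89 and 7.77 against 5.29, 5.29, 6.94 and 7.07). Cdkn1a was low on replicate 1 in both, with a smaller span in hypothalamus (6.70, 9.60, 8.90 and 9.71 against 8.09, 8.90, 8.56 and 9.30).

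Of 203 variable liver genes detected on all 8 arrays, 41 (20.2%) had the same pattern in hypothalamus, against 569 of 5842 genes (9.74%). Of the 32 with an SD of at least 0.5 in both tissues, 18 (56.25%) had the same pattern. Class II genes were not among these 18: H2-Ab1 read 10.20, 11.19, 10.16 and 9.43 in liver and 5.69, 6.96, 6.92 and 6.24 in hypothalamus, where replicates 2 and 3 were both high. Cxcl9, Mug2, Hal, Bhmt and Cyp2b9 could not be set against hypothalamus, which detected them on 1, 0, 0, 0 and 0 arrays.

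**Figure D5:**
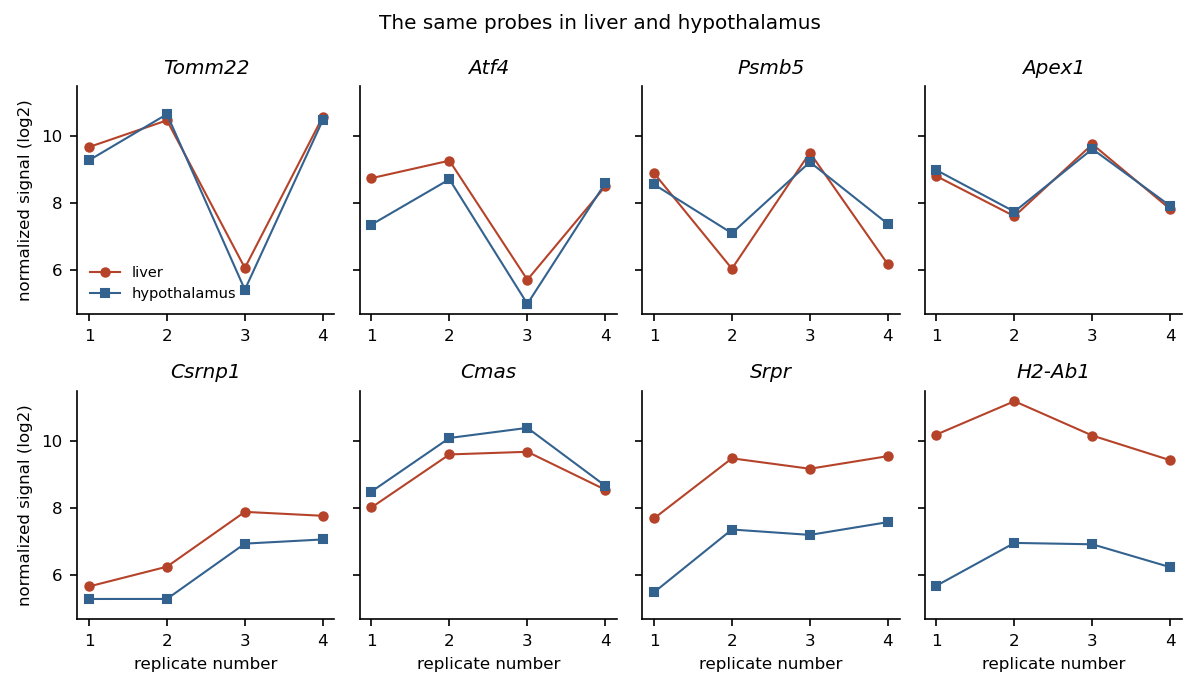
Normalized log2 signal (vertical axis) of 8 probes on the arrays of liver (circles) and hypothalamus (squares) by replicate number (horizontal axis), after joint normalization of 8 arrays. Tomm22 and Atf4 dip on replicate 3 in both tissues and Psmb5 and Apex1 are high on replicates 1 and 3, while H2-Ab1 differs in shape.

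Promoter windows were also read by rank. The string TATAAA, the core of the TATA box, was present on either strand in 17.02% of 94 windows of the 100 brightest genes, in 13.2% of the windows of the next genes down to rank 500, in 7.68% down to rank 2000, in 7.04% beyond, and in 13.6% of all windows in the table. On the sense strand 40 to 15 bases before the start it was present in 6.38%, 4.57%, 1.58% and 0.966% of the same rank classes and in 1.99% of all windows. The HNF4 string CAAAGTCCA was present in 2.13%, 1.27%, 0.548% and 0.336% of these rank classes and in 0.475% of all windows. Of the 100 brightest genes 80 had a window, and several windows can belong to 1 gene. The HNF1 string (GTTAAT, any base, ATT), the C/EBP string TTGCGCAA, the gamma-activated site TTCNNNGAA, the D-box TTATGTAA and the sterol element TCACNCCAC were searched in the same way, on both strands. They were present in 0%, 0%, 6.38%, 1.06% and 2.13% of the 94 windows and in 0.399%, 0.183%, 8.30%, 0.938% and 1.24% of all windows. A stretch of bases can match more than 1 of these strings, and each string was counted on its own.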

How the data were processed

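Total RNA of 4 livers and 4 hypothalami was read on 8 single-colour Illumina arrays. The deposited table holds intensity on a linear scale, not normalized between arrays per the file headers, with a detection p-value for each probe. A second deposited table holds intensity values normalized by the authors, by a method that the sources used here do not give. The submitters' processing notes name lumi 2.10.0 and R 2.15.0 without a role.

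Background was corrected with normexp from the detection p-values, and arrays were quantile normalized (neqc, offset 16; limma 3.58.1, R 4.3.3). Shares used corrected signal with offset 0. A gene was read by its brightest probe. Of 25697 probes, 23978 have 1 gene symbol, 1719 none and 0 several. Genes with an SD of at least 0.5 on the log2 scale are called variable, and the largest gap between the 4 sorted values gives a gene's pattern. Tissues were compared by exact permutation. The procedures were tested on simulated data. The number of arrays limits the precision.

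The members, the 56 gene lists and the tests were chosen with earlier results of these data known. Named were the 30 brightest genes, the 4 brightest of each list, the 30 most variable, the 5 most variable of each pattern, variable list members and Fmod. Alb, Ttr, Hnf4a, Cdc42ep1, Fcgr4, Hbb-bt, Hes1, Id2, Irgm2, Lgals1, Mug1, Eif5, Cox5b, the undetected markers and the other list members outside this rule were chosen after their values were seen. Replicate numbers were not taken as pairs in the main test, since no label ties them to a mouse.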

Additional observations from a re-analysis of the deposited data

Results flagged for a closer look

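In a group of 4 arrays, a value was singled out where its gap to the nearest of the others was too large a part of the whole range by Dixon's 95% criterion. Chance singles out about 1 in 20 groups, and of all 6520 detected genes 368 (5.64%) were. Of 6 measures per array 2 were singled out, both on liver replicate 1. Its brightest probe read 36090, against 41678 to 42026 on the others, and 398 probes held 50% of its signal, against 413 to 416.

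Of 54 list shares 4 were singled out. Oxidative phosphorylation genes held 5.10% of the signal on replicate 1, against 4.83% to 4.87%. After normalization between arrays the list was not shifted there: the median deviation was −0.0009, with 24 of 65 genes highest and 22 lowest. The 2 detected neutrophil genes held 0.00704% there, against 0.00262% to 0.00317%. The 2 detected genes of the blood list held 0.284%, against 0.142% to 0.159%, although Alas2, the dimmer of them, was lowest there. Cd3e, the 1 detected gene of the T and NK cell list, held 0.000342% on replicate 3, against 0.000634% to 0.000646%.

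Of the 74 genes whose values were tested in this way, chosen with their values known, 8 were singled out. On replicate 2 Cxcl9 read 9.66 on the log2 scale (others 6.35 to 6.56) and Gbp2b 7.64 (5.66 to 5.87). On replicate 1 Hba-a1 read 14.54 (13.46 to 13.60). On replicate 4 Mug2 read 8.95 (12.59 to 13.17) and Hal 9.51 (11.65 to 12.07). On replicate 3 Id1 read 8.61 (6.87 to 7.04), Hes1 7.40 (6.10 to 6.27) and Abhd1 6.03 (8.84 to 9.32).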

How the results depend on the processing

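Shares of signal moved with the background correction and with what was counted. The 10 brightest probes held 2.82% without background correction, 2.71% in the values normalized by the authors and 3.88% with 1 probe per gene, and the 100 brightest 19.8%, 19.6% and 25.7%. The number of probes holding 50% of the signal was 509.25, 475.5 and 326.5 in these settings, and 423.5 with all probes in the total. Leaving out 1 liver array gave 3.06% to 3.17%, 21.7% to 22.2%, 409 to 415 probes and 9193 to 9333 detected probes. Variable genes numbered 66 without background correction, 69 in the values normalized by the authors and 413 over all detected probes, and 236 to 405 with 1 array left out. The 66 and the 69 were all among the 275, and 252 and 260 of the 275 kept their pattern. Of 54 list shares 5 moved by more than 1.5 times without background correction, and 0 under the other settings. The list directions on single arrays were checked under 5 other scalings, chosen after seeing the data, under which the median deviation of all genes stayed between −0.063 and 0.0728 (log2). Medians near 0 could turn sign, as those of plasma protein genes did on replicates 3 and 4 under 3 of the 5. None of the results recomputed under the planned settings changed direction.

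The differences between tissues kept their direction, at 0.744 to 0.851 and 6.57 to 7.03 percentage points and −345.25 to −326.9 probes with 1 array left out. With the replicate block they were 0.804, 6.82 and −337.5, with p = 0.125 for each by an exact sign-flip permutation test of 4 pairs, the smallest p it allows. Deviations of same-numbered arrays correlated at 0.128, 0.114, 0.0631 and 0.176 over 7992 probes, and every array correlated best with its own number in the other tissue. Of the 32 genes variable in both tissues 18 (56.25%) also shared their pattern by number, against 9.74% of all genes detected on all 8 arrays. Both are hints from the data that numbers may mark mice, not from the design. If they do, the 8 arrays are not independent and the p of 0.125 is the one that applies. Signal over background limits the dim genes, where most variable genes lie.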
